A study of Mus musculus with 12 samples.

Results

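Bone resorption effectors are the enzymes, ion transporters, vesicle adaptors and surface proteins with which an osteoclast dissolves mineral and digests matrix. Taken by gene symbol, 10 genes were described here, each with 1 Ensembl ID, out of 23764 IDs with a value: Ctsk, Acp5, Adam8, Car2, Ckb, Clcn7, Ostm1, Slc9b2, Snx10 and Plekhm1. The values are from RNA-seq of RAW264.7 cells, an immortalized monocyte/macrophage line of Balb/c origin that forms osteoclast-like cells under RANKL, the cytokine that drives osteoclast formation. All 12 libraries were from cells given RANKL, at 100 ug/ml as labelled. In 6 of them the cells also received the culture supernatant of the bacterium L. reuteri, and in the other 6 the vehicle, MEM-alpha medium. RNA was taken at day 1, day 3 and day 5, with 2 libraries for each treatment and day, and there was no group without RANKL. Whether the 2 libraries of a group are from different cultures is not in the labels; every p-value below is set against the spread of these libraries alone, and that spread may be technical. RAW264.7 is a single cell line, and no bone or other mineral surface is named in the labels.

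A resorbing osteoclast seals off a patch of bone and pumps acid into it across a folded membrane. Carbonic anhydrase supplies the protons, a V-type ATPase moves them, and a chloride transporter carries the balancing charge. The acid dissolves the mineral, and lysosomal proteases delivered to the same membrane digest the collagen. Acp5 and Ctsk are standard markers of osteoclast formation, while the vesicle and lysosome genes of the set are also used by macrophages.

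Libraries held between 8071160 and 16781080 reads. Replicate 2 of days 3 and 5 stood apart in both treatments. Nuclear protein-coding genes held between 38.1% and 48.8% of the reads in those 4 libraries, against between 85.2% and 87.6% in the other 8. Malat1, a nuclear noncoding RNA, held between 8.15% and 14.0% against 0.218% to 0.489%, and mitochondrially encoded genes between 25.7% and 30.6% against 3.64% to 5.97%. They are called low-mRNA libraries below, and each result that rests on them is given with and without them. All 11 macrophage markers looked up were above 0 in 11 of the 12 libraries, with Lyz2 the highest, and Fcgr1 was at 0 in vehicle day 3 replicate 2. The 10 osteoclast markers, which include Acp5 and Ctsk, summed to between 3177 and 17656 normalized counts. Ctsk reached 7163.8, Nfatc1 6223.6, Mmp9 4764.0, Atp6v0d2 4611.7, Dcstamp 1688.7, Acp5 1230.6 and Ocstamp 841.5, while Itgb3, Oscar and Calcr reached at most 76.3, 28.3 and 15.5, and Calcr, the calcitonin receptor, was at 0 in 8 of the 12 libraries. Of the markers of stromal cells and osteoblasts, 5 of 10 had a row and summed to between 30.9 and 118.4 normalized counts, most of it Runx2, and those of T cells (3 of 4 with a row) and B cells (2 of 3) summed to at most 4.7 and 10.1. In bulk RNA, fewer cells of a type and less RNA per cell cannot be told apart.

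The promoters of 9 of the 10 genes, all but Car2, were in the RefSeq table for mouse build GRCm38.p6, with 14 start sites in all. The 4 shown run from 250 bases before to 50 bases after the start, 5′ to 3′ on the gene's strand. Acp5, Ctsk and Slc9b2 are shown because they moved together between days 1 and 3, and Clcn7 because it rose with the supernatant at day 1 beside Ctsk. Acp5 and Clcn7 also have other start sites, and the window printed for each is the one with the most matches. The other Acp5 windows hold 1 GGAAA each, and the other Clcn7 window holds 1 CATGTG. Capitals mark matches on either strand to GGAAA (the core bound by NFAT factors), TGANTCA (AP-1), CACGTG and CATGTG (E-boxes of the kind bound by the MITF and TFE family) and GAGGAA (PU.1). GGAAA and GAGGAA can overlap, which happened in 1 Snx10 window and in none of the 4 printed.
Acp5, chr9:22130549-22130848, minus strand: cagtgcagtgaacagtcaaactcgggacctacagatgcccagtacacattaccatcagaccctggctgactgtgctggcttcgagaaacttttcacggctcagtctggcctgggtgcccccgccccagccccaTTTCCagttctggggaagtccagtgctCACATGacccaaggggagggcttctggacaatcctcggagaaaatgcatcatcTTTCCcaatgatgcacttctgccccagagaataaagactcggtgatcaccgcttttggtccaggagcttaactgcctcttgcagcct
Ctsk, chr3:95498960-95499259, plus strand: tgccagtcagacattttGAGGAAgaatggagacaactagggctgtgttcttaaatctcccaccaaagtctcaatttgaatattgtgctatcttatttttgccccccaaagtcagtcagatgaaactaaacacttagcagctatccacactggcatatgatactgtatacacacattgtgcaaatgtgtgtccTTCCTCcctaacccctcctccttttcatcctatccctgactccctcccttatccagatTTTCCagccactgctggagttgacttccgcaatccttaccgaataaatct
Slc9b2, chr3:135307450-135307749, plus strand: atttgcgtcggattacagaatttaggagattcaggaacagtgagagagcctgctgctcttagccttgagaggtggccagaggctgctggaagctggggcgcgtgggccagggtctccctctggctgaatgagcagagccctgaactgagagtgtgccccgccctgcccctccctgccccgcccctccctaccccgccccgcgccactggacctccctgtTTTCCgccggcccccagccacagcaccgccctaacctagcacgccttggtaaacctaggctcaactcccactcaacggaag
Clcn7, chr17:25133141-25133440, plus strand: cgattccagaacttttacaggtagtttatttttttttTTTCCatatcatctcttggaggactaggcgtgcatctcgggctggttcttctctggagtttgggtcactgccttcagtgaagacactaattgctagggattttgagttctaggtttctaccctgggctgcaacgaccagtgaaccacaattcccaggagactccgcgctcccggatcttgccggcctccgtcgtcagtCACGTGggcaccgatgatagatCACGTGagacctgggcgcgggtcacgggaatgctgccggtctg
GGAAA was in 10 of the 14 windows and in 6 of the 9 genes, against 61.3% of all 32851 promoters of the same length. GAGGAA was in 3 windows, those of Ctsk (with 2 matches) and of 2 Snx10 starts, against 28.3% of promoters. CATGTG was in the Acp5 window above and at a second Clcn7 start, against 14.2%. CACGTG was in the Clcn7 window alone, with 2 copies. Of all promoters, 7.15% hold it and 0.594% hold 2 or more. The share with 2 or more was not planned and was taken for this motif alone, so the 2 copies are a description only. TGANTCA was at 1 Snx10 start, against 7.81%. A match describes letters only and is not a bound site.

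Levels were compared between genes per kilobase of exon, as normalized counts per kb. At day 1 in vehicle cells the order was Adam8 (1091 ± 103), Ckb (405 ± 57.8), Snx10 (226 ± 5.46), Plekhm1 (191 ± 4.01), Clcn7 (113 ± 7.57), Ctsk (112 ± 0.0025), Ostm1 (93.9 ± 3.33), Car2 (73.6 ± 5.57), Acp5 (8.07 ± 2.97) and Slc9b2 (0.722 ± 0.826), each as mean ± SD of 2 libraries. Clcn7 and Ctsk did not differ beyond their spread. Acp5 and Slc9b2, usually read as markers of the formed osteoclast, were thus the lowest of the 10 at day 1, and Adam8 was the highest. At day 5 the replicates were too far apart for an order: Ctsk averaged 2462 ± 3219 normalized counts per kb with the supernatant and 2308 ± 2984 with vehicle (SD, n = 2 each).

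**Figure D1:**
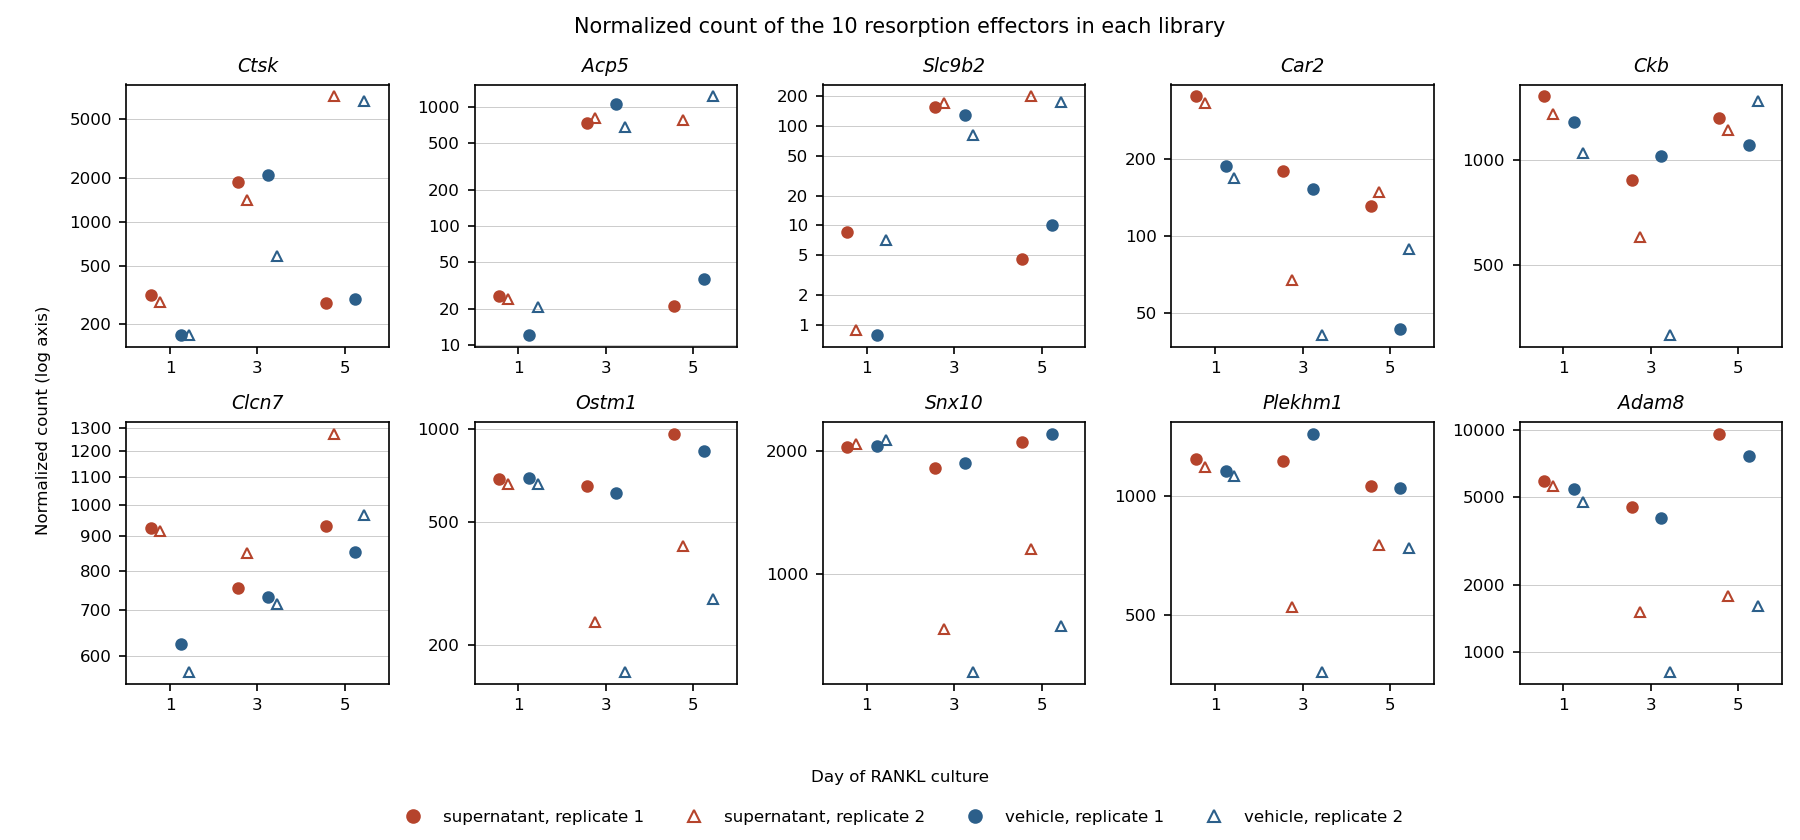
Normalized count of each of the 10 genes in each of the 12 libraries (log axis), by day, with supernatant left of vehicle; filled circles are replicate 1 and open triangles replicate 2, which are the low-mRNA libraries at days 3 and 5. Ctsk, Acp5 and Slc9b2 are low at day 1, high in all 4 libraries of day 3 and split by replicate at day 5, where Acp5 is at 21.1 and 771.5 with the supernatant and 35.9 and 1230.6 with vehicle.

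The question at day 1 was whether the supernatant changed these genes early in RANKL culture, and 4 of the 9 tested rose with it and none fell. Car2, Ctsk and Clcn7 rose by between 0.63 and 0.94 on the log2 scale and Ckb by 0.31. Acp5, Adam8, Plekhm1, Ostm1, and Snx10 did not pass the test, and Slc9b2, with a mean under 10 normalized counts in both groups, was not tested. Across all 13651 genes tested at day 1, 7.28% were called higher and 9.11% lower, and the median log2 difference of the 9 was 0.31 against -0.05 over all genes. The test was limma on log2(normalized count + 1) over the 4 day 1 libraries, with Benjamini-Hochberg adjusted p under 0.05.

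Of the acid-forming genes, Car2 encodes carbonic anhydrase II, the cytosolic enzyme that makes protons and bicarbonate from carbon dioxide, and its loss in people causes osteopetrosis. Car2 had 353.2 and 333.6 normalized counts with the supernatant and 187.8 and 168.8 with vehicle. Both supernatant libraries lay above both vehicle libraries, and the log2 difference was 0.94 ± 0.10 (SE, n = 2 each, limma adjusted p = 1.1e-06). Clcn7, the chloride-proton exchanger of lysosomes and of the ruffled border, had 926.4 and 914.5 normalized counts with the supernatant and 624.8 and 568.2 with vehicle. Its groups did not overlap either, with a log2 difference of 0.63 ± 0.07 (limma adjusted p = 2.4e-06). Ostm1 is the membrane partner that stabilises ClC-7, and it did not move with it. Ostm1 had 688.3 and 660.4 normalized counts with the supernatant and 693.8 and 659.8 with vehicle, a log2 difference of -0.00 ± 0.07 (limma adjusted p = 0.98).

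Of the matrix-degrading genes, Ctsk encodes cathepsin K, the collagenase that does most of the work of matrix digestion. Ctsk had 316.2 and 284.9 normalized counts with the supernatant and 169.7 and 169.7 with vehicle. The groups did not overlap, and the log2 difference was 0.82 ± 0.11 (SE, n = 2 each, limma adjusted p = 1e-05). Acp5 encodes tartrate-resistant acid phosphatase, the classical osteoclast stain. It had 25.8 and 24.0 normalized counts with the supernatant and 12.1 and 20.6 with vehicle, from between 16 and 30 reads a library. Its log2 difference of 0.62 ± 0.32 was nearly as large as that of Clcn7 but did not pass the test (limma adjusted p = 0.20). Within the pairs of same-numbered libraries the difference was 1.03 and 0.21. Adam8, a membrane-bound metalloprotease of myeloid cells, had 5901.0 and 5589.0 normalized counts with the supernatant and 5397.0 and 4719.0 with vehicle. Its log2 difference of 0.19 ± 0.06 narrowly missed the threshold (limma adjusted p = 0.053).

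Ckb encodes the brain-type creatine kinase, which regenerates ATP from phosphocreatine. It had 1529.6 and 1357.7 normalized counts with the supernatant and 1290.6 and 1053.8 with vehicle. The supernatant libraries lay above the vehicle libraries by a small margin, with a log2 difference of 0.31 ± 0.08 (limma adjusted p = 0.012). Snx10 and Plekhm1 sort vesicles toward lysosomes and the ruffled border, and loss of either gives osteopetrosis. Snx10 had 2056.4 and 2083.1 normalized counts with the supernatant and 2069.1 and 2140.9 with vehicle, a log2 difference of -0.02 ± 0.06 (limma adjusted p = 0.83). Plekhm1 had 1247.8 and 1186.6 with the supernatant and 1159.5 and 1125.7 with vehicle, a difference of 0.09 ± 0.06 (limma adjusted p = 0.38). Slc9b2, a sodium-proton antiporter also known as NHA2, was at 8.6 and 0.9 normalized counts with the supernatant and 0.8 and 7.2 with vehicle, from 1 to 10 reads a library, which allows no comparison.

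Without overlap between the groups, 7 of the 9 tested genes were higher with the supernatant at day 1 (all but Ostm1 and Snx10), against 21.7% of all tested genes. The Ckb call did not hold when vehicle replicate 2 or supernatant replicate 1 was left out (limma adjusted p = 0.24 and 0.099) or when genes were kept that passed the filter at any day (adjusted p = 0.18); then 3 genes were called, against 3.04% of all genes called higher. All 4 calls ended when the spread was estimated over the 12 libraries with a term for the low-mRNA libraries at each later day (adjusted p between 0.32 and 1 with 0.0408% of all genes called), and also over the 12 libraries without that term.

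**Figure D2:**
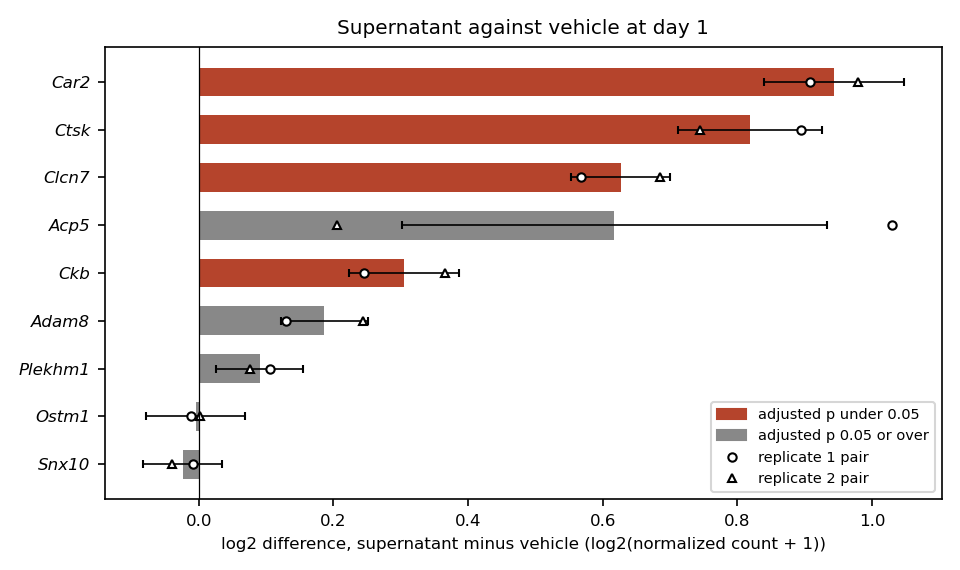
Log2 difference between supernatant and vehicle at day 1 for the 9 genes tested, as bars with SE from limma, with the difference within each pair of same-numbered libraries as open symbols. Car2, Ctsk, Clcn7 and Ckb pass the threshold at 0.94, 0.82, 0.63 and 0.31, and Acp5 at 0.62 does not, with its pairs at 1.03 and 0.21.

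At day 3 the question was whether the supernatant changed the same genes later in the culture, and none of the 10 was called (limma over the 12 libraries, every adjusted p = 1). Of 14715 genes tested, 0% were called, 43 were at an unadjusted p under 0.05, and limma-voom on the recovered reads also called 0. Without the low-mRNA libraries none of the 10 was called either, against 2.72% of all genes; that fit has 1 library a treatment at day 3 and takes its spread from day 1. The 2 pairs of libraries gave different values. In the replicate 1 pair the median log2 difference of all tested genes was -0.01, and in the low-mRNA pair it was 0.46, so that values in the second pair are read relative to that shift.

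Ctsk had 1865.7 and 1414.1 normalized counts with the supernatant and 2085.5 and 580.6 with vehicle at day 3. The groups overlapped, and the difference was -0.16 in the replicate 1 pair and 1.28 in the low-mRNA pair, or 0.98 once scaled to protein-coding reads. Acp5 had 741.9 and 814.1 with the supernatant and 1068.1 and 674.7 with vehicle, with pair differences of -0.53 and 0.27. Car2 had 180.8 and 67.7 with the supernatant and 153.1 and 41.2 with vehicle. Car2 was thus higher with the supernatant within each pair, by 0.24 and 0.70 on the log2 scale, against medians of all genes of -0.01 and 0.46 in the same pairs, and by 0.41 in the second once scaled to protein-coding reads, where the median was 0.16. Slc9b2 had 154.2 and 171.6 with the supernatant and 128.9 and 80.8 with vehicle, and Clcn7 had 756.0 and 850.3 with the supernatant and 732.1 and 714.3 with vehicle. These 2 were the genes whose groups did not overlap at day 3, where 4.46% of all tested genes were higher without overlap. Scaled to protein-coding reads, the groups of both overlapped. Slc9b2 was then at 130.2 and 262.7 with the supernatant and 108.2 and 152.7 with vehicle. Clcn7 was at 638.5 and 1301.3 with the supernatant and 614.4 and 1349.5 with vehicle. Their differences in the low-mRNA pair were 1.08 and 0.25, or 0.78 and -0.05 once scaled. Of the other 5, Ckb, Ostm1, Snx10, Plekhm1 and Adam8, the log2 differences lay between -0.23 and 0.15 in the replicate 1 pair and between 0.35 and 0.93 in the low-mRNA pair.

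At day 5 Car2 had the largest log2 difference of the 10 between supernatant and vehicle, as at day 1. Car2 had 131.2 and 149.3 normalized counts with the supernatant and 43.2 and 89.0 with vehicle. It was the gene of the 10 whose groups did not overlap at day 5, where 3.36% of all tested genes were higher without overlap. Scaled to protein-coding reads, Car2 was at 107.8 and 220.2 with the supernatant and 35.55 and 156.4 with vehicle, and its groups overlapped. Its log2 difference over the 12 libraries was 1.16 ± 0.73 (SE, n = 2 each) and none of the 10 was called (limma, every adjusted p = 1, with 0% of 14715 genes called, 51 genes at an unadjusted p under 0.05 and 0 called by limma-voom). With the term for low-mRNA libraries, Car2 came to an adjusted p of 0.079. Without the low-mRNA libraries, Car2 rose by 1.58 ± 0.17 (limma adjusted p = 1.8e-05) and Adam8 by 0.34 ± 0.09 (adjusted p = 0.024), 2 of the 10 genes against 5.43% of all genes called higher. That fit holds 1 library a treatment at day 5, assumed to vary like the day 1 libraries. The Car2 call held when any of the day 1 libraries was left out or when the filter was set over all groups, with adjusted p up to 0.017, and the Adam8 call did not, with adjusted p up to 0.13. In the low-mRNA pair Car2 was higher by 0.74, or by 0.49 once scaled to protein-coding reads.

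Ctsk had 280.8 and 7163.8 normalized counts with the supernatant and 299.1 and 6680.1 with vehicle at day 5. The 2 treatments were near each other within each pair, at -0.09 and 0.10 on the log2 scale. Acp5 had 21.1 and 771.5 with the supernatant and 35.9 and 1230.6 with vehicle. It was lower with the supernatant in both pairs, at -0.74 and -0.67 on the log2 scale, and did not pass the test over the 12 libraries or without the low-mRNA libraries (limma adjusted p = 0.14 in that fit, from 23 reads with the supernatant and 39 with vehicle). Slc9b2 had 4.6 and 197.9 with the supernatant and 10.1 and 172.4 with vehicle. Clcn7 had 931.3 and 1274.0 with the supernatant and 853.0 and 967.8 with vehicle, with pair differences of 0.13 and 0.40. Adam8 had 9607.8 and 1793.0 with the supernatant and 7595.1 and 1616.3 with vehicle. Ckb, Ostm1, Snx10 and Plekhm1 differed by between -0.07 and 0.26 in the replicate 1 pair and between -0.28 and 0.63 in the low-mRNA pair, where the median of all genes was 0.23.

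**Figure D3:**
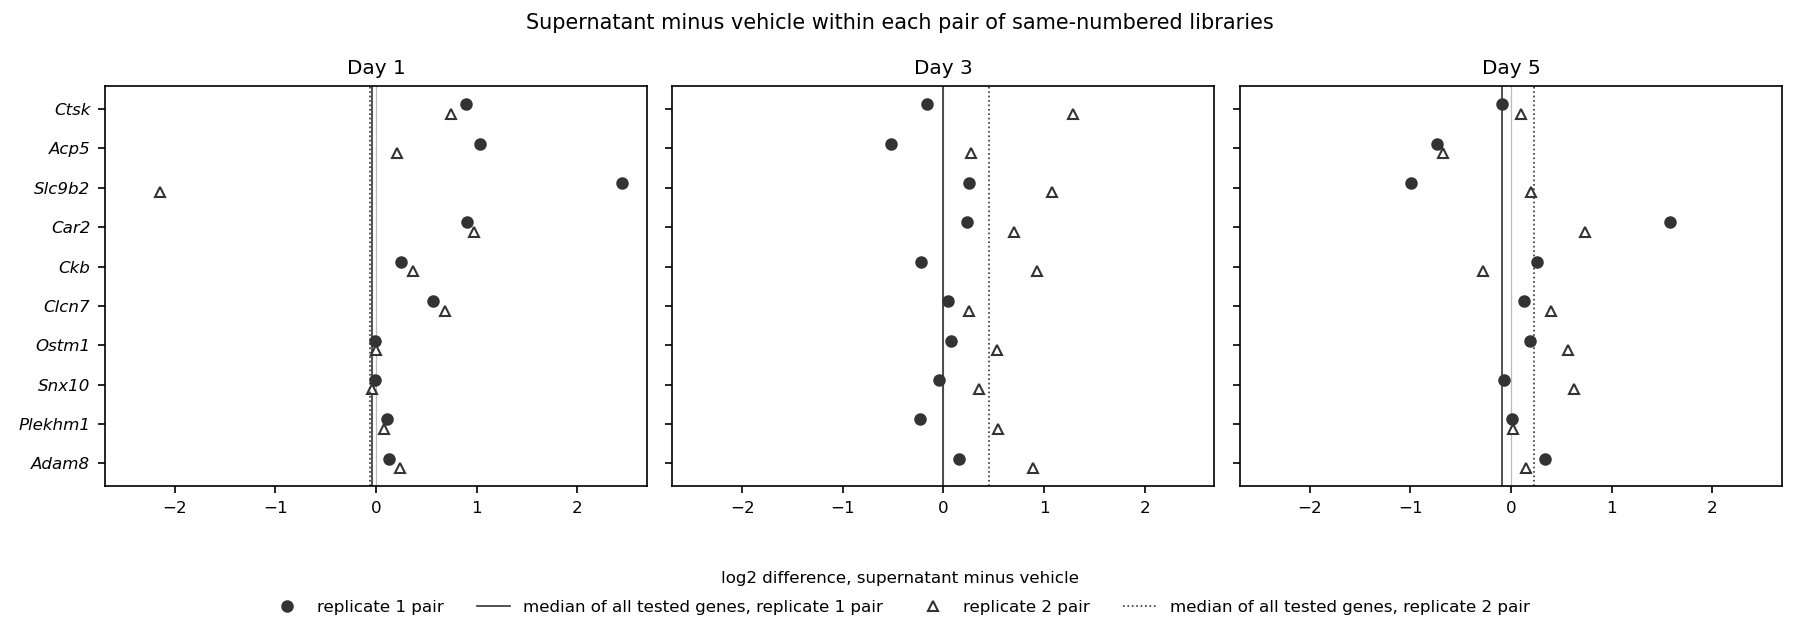
Log2 difference between supernatant and vehicle within each pair of same-numbered libraries, by day, with vertical lines at the median of all tested genes in that pair. Car2 is to the right of 0 in all 6 pairs, at 0.91 and 0.98 at day 1, 0.24 and 0.70 at day 3 and 1.58 and 0.74 at day 5, while Ctsk is at 0.89 and 0.74 at day 1 and at -0.09 and 0.10 at day 5.

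Whether the supernatant effect differed between the 3 days was tested directly. Over the 12 libraries none of the 10 genes differed (limma, every adjusted p = 1 when rounded, with 0% of genes called and 3 genes at an unadjusted p under 0.05). Without the low-mRNA libraries the effect on Ctsk (limma adjusted p = 0.00069), Car2 (adjusted p = 0.0073) and Clcn7 (adjusted p = 0.0098) differed between days, 3 of the 10 genes against 6.95% of all genes. For Ctsk and Clcn7 the difference was larger at day 1 than at days 3 and 5, and for Car2 it was smallest at day 3 and largest at day 5. These 3 calls ended without vehicle day 1 replicate 1 (limma adjusted p = 0.087, 0.11 and 0.10 for Ctsk, Car2 and Clcn7), without vehicle day 1 replicate 2 (0.070, 0.099 and 0.14) and with the filter over all groups (0.085, 0.13 and 0.14), and that of Clcn7 also without supernatant day 1 replicate 1 (0.061).

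The question between days was how these genes moved during the culture; the comparisons of days 3 and 5 share their day 1 libraries. Acp5, Ctsk and Slc9b2 were higher at day 3 than at day 1 in each treatment, without overlap. Acp5 stood at 741.9 and 814.1 normalized counts at day 3 with the supernatant against 25.8 and 24.0 at day 1, and at 1068.1 and 674.7 against 12.1 and 20.6 with vehicle. Ctsk stood at 1865.7 and 1414.1 at day 3 with the supernatant against 316.2 and 284.9 at day 1, and at 2085.5 and 580.6 against 169.7 and 169.7 with vehicle. Slc9b2 stood at 154.2 and 171.6 at day 3 with the supernatant against 8.6 and 0.9 at day 1, and at 128.9 and 80.8 against 0.8 and 7.2 with vehicle, from 1 to 10 reads a library at day 1 and between 55 and 197 at day 3. With day 1 means of 4.75 with the supernatant and 4 with vehicle, Slc9b2 passed the filter of 10 only through the later groups in which it is high, so that among genes tested it had to differ from day 1; its change is a description here, with no test. Besides it, Acp5 and Ctsk were higher without overlap at day 3 with the supernatant (13.9% of all tested genes were), and Acp5, Ctsk and Clcn7 with vehicle (10.5%).

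Over the 12 libraries none of the time comparisons gave a call for any of the 10 genes, and 0% of 14715 genes were called in each (limma; 168, 174, 288 and 207 genes were at an unadjusted p under 0.05 for supernatant day 3, supernatant day 5, vehicle day 3 and vehicle day 5, each against day 1, and limma-voom called 0 in each). With the term for low-mRNA libraries at each day, Acp5 rose at day 3 relative to day 1 by 5.04 ± 0.31 on the log2 scale with the supernatant (SE, limma adjusted p = 0.00013) and Ctsk by 2.99 ± 0.30 (adjusted p = 0.0011). With vehicle the same 2 genes rose, by 5.79 ± 0.31 (adjusted p = 3.3e-05) and 3.25 ± 0.30 (adjusted p = 0.00072). Of all genes, 0.917% were called higher with the supernatant and 0.870% with vehicle. A fit without the low-mRNA libraries called Acp5 and Ctsk higher at day 3 in each treatment, together with Clcn7 and Plekhm1 with vehicle, against 16.7% of all genes with the supernatant and 14.5% with vehicle. The fitted log2 difference of Slc9b2 with the low-mRNA term was 5.41 ± 0.90 with the supernatant and 4.89 ± 0.90 with vehicle.

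At day 5 Acp5, Ctsk and Slc9b2 differed between replicates more than between treatments. Replicate 1 was far under its day 3 level, near day 1 with the supernatant and somewhat above day 1 with vehicle, and replicate 2, the low-mRNA library, was near its day 3 level or above it. The log2 difference of Acp5 between day 5 and day 1 was -0.23 in replicate 1 and 4.90 in replicate 2 with the supernatant, and 1.13 and 6.19 with vehicle. For Ctsk it was -0.10 and 4.57 with the supernatant and 0.81 and 5.29 with vehicle, and for Slc9b2 0.41 and 5.56 with the supernatant and 1.55 and 5.51 with vehicle. The median of all tested genes in the same comparisons was -0.05 and -0.95 with the supernatant and -0.00 and -1.23 with vehicle, so that these 3 genes were far higher in the low-mRNA libraries while most genes were lower there. The part of the low-mRNA composition in this split was not tested. Of the 8 osteoclast markers other than Acp5 and Ctsk, 6 were higher in replicate 2 than in replicate 1 with the supernatant at day 5 (Nfatc1 and Itgb3 were lower) and 8 with vehicle. These 8 summed to 2875 normalized counts in replicate 1 and 9721 in replicate 2 with the supernatant, and to 3167 and 8179 with vehicle. Without the low-mRNA libraries, Acp5 (1.13 ± 0.28) and Ctsk (0.81 ± 0.10) rose at day 5 with vehicle (limma adjusted p = 0.0047 and 1.9e-05) and were at -0.23 ± 0.28 and -0.10 ± 0.10 with the supernatant (adjusted p = 0.56 and 0.51).

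**Figure D4:**
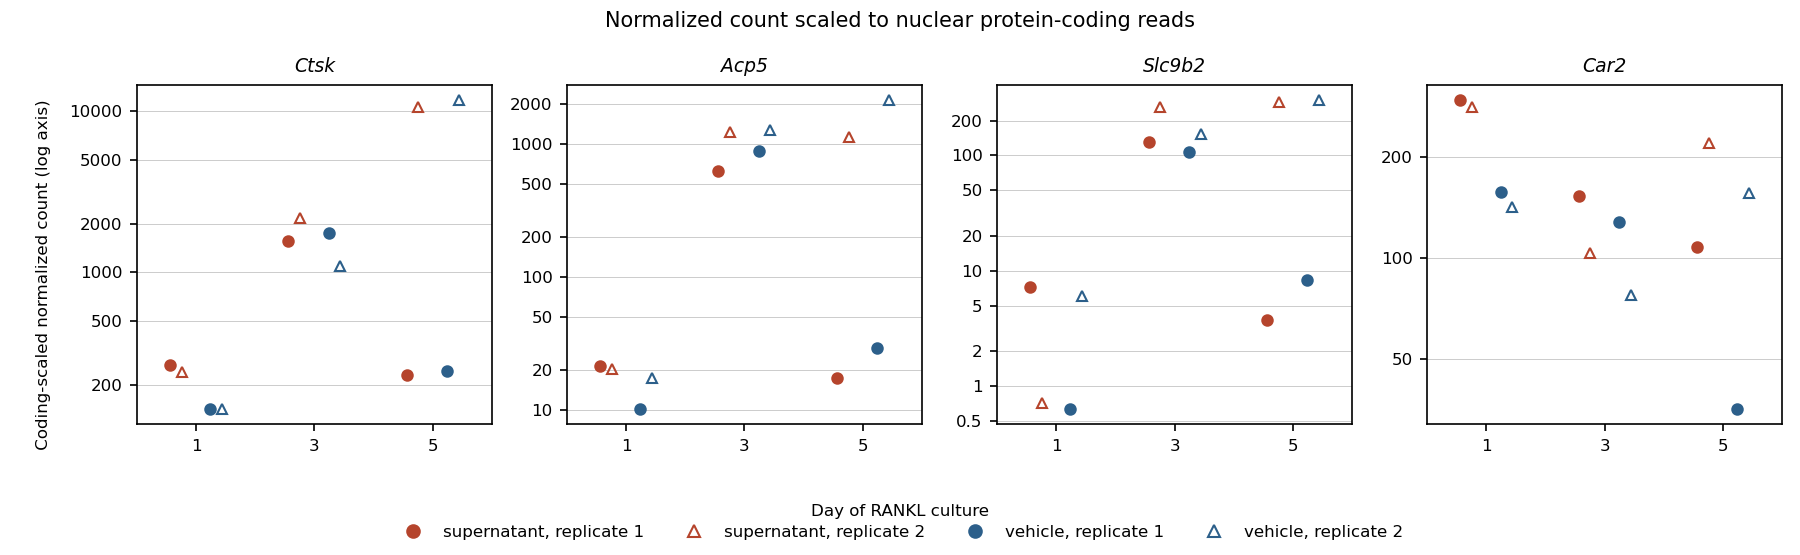
Normalized counts of 4 genes scaled to the nuclear protein-coding reads of each library (log axis), by day, with supernatant left of vehicle; symbols as in the plot of all 10 genes. Scaled this way, Ctsk at day 5 is at 230.7 and 10565 with the supernatant and at 245.8 and 11736 with vehicle, and Car2 is at 107.8 and 220.2 with the supernatant and at 35.5 and 156.4 with vehicle.

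Car2 took the opposite course. With the supernatant it stood at 353.2 and 333.6 normalized counts at day 1, 180.8 and 67.7 at day 3 and 131.2 and 149.3 at day 5, and with vehicle at 187.8 and 168.8, 153.1 and 41.2, and 43.2 and 89.0. Every library of days 3 and 5 lay under both day 1 libraries of its treatment. In the low-mRNA libraries most genes were also lower. There Car2 differed from day 1 by -2.325 with the supernatant and -2.09 with vehicle at day 3, against medians of -1.15 and -1.68. At day 5 it differed by -1.20 and -0.99, against medians of all genes of -0.95 and -1.23. With the term for low-mRNA libraries Car2 fell at day 5 by 1.59 ± 0.27 on the log2 scale with the supernatant (limma adjusted p = 0.013) and by 1.81 ± 0.27 with vehicle (adjusted p = 0.0096), as 1 of the 10 genes against 1.56% and 1.31% of all genes called lower. Scaled to protein-coding reads, the difference from day 1 in replicate 2 was -0.39 with the supernatant and 0.06 with vehicle, so the fall at day 5 is seen in replicate 1 (-1.38 and -2.02) under either scale and in the vehicle low-mRNA library only without that scaling.

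Snx10, Ostm1, Plekhm1, Adam8 and Ckb had between 659.8 and 5901.0 normalized counts at day 1, and all 5 were lower in the low-mRNA libraries of day 3 than in replicate 1. Scaled to protein-coding reads, Ckb with the supernatant turned, at 742.9 in replicate 1 and 918.1 in the low-mRNA library. Ckb with vehicle and the other genes stayed lower. Snx10 had 1821.8 and 729.1 normalized counts at day 3 with the supernatant and 1873.7 and 571.8 with vehicle, and 2106.7 and 1149.5 at day 5 with the supernatant and 2213.9 and 743.2 with vehicle. Replicate 1 was near the day 1 level and the low-mRNA libraries were lower, as the median gene was. Ostm1 had 650.3 and 236.2 at day 3 with the supernatant and 618.1 and 163.2 with vehicle, and 963.4 and 416.0 at day 5 with the supernatant and 846.6 and 281.2 with vehicle. Plekhm1 had 1227.1 and 524.4 at day 3 with the supernatant and 1444.0 and 358.6 with vehicle, and 1062.5 and 752.5 at day 5 with the supernatant and 1051.8 and 741.8 with vehicle. Adam8 had 4474.0 and 1510.1 at day 3 with the supernatant and 4023.3 and 814.3 with vehicle, the lowest day for both replicates in either treatment. Ckb had 879.6 and 600.0 at day 3 with the supernatant and 1029.1 and 314.5 with vehicle, and 1329.6 and 1225.4 at day 5 with the supernatant and 1111.6 and 1486.4 with vehicle. Ckb at day 5 in the low-mRNA libraries differed from day 1 by -0.23 on the log2 scale with the supernatant and 0.35 with vehicle. Scaled to protein-coding reads, the low-mRNA libraries stayed under day 1 at day 3 for these 5 genes (between -1.06 and -0.35 with the supernatant and between -1.46 and -0.50 with vehicle, with medians of all genes of -0.30 and -0.54). At day 5 that scaling put Ckb above its day 1 level (0.58 with the supernatant and 1.41 with vehicle), as well as Plekhm1 (0.12 and 0.44) and, with the supernatant, Ostm1 (0.11).

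In the low-mRNA libraries Clcn7 and its partner Ostm1 differed in course. Between day 1 and the low-mRNA library of day 3 the log2 difference of Clcn7 was -0.11 with the supernatant and 0.26 with vehicle, while that of Ostm1 was -1.51 and -2.05 and the median of all genes was -1.15 and -1.68. At day 5 Clcn7 in the low-mRNA library was at 0.47 with the supernatant and 0.70 with vehicle, and Ostm1 at -0.70 and -1.26. In replicate 1 Clcn7 was at -0.28 with the supernatant and 0.30 with vehicle at day 3, and at 0.02 and 0.52 at day 5, and Ostm1 was at -0.05 and -0.13 at day 3 and at 0.51 and 0.32 at day 5. Scaled to protein-coding reads, Clcn7 in the low-mRNA library was above day 1 throughout, at 0.75 with the supernatant and 1.43 with vehicle at day 3 and at 1.28 and 1.76 at day 5, so that its direction at day 3 with the supernatant turns with the scaling; Ostm1 was then at -0.65 and -0.88 at day 3 and at 0.11 and -0.20 at day 5.

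Counting genes whose groups did not overlap, Adam8, Car2, Ckb, Clcn7, Ostm1 and Snx10 were lower at day 3 with the supernatant (30.0% of all tested genes were) and Adam8, Car2, Ckb, Ostm1 and Snx10 with vehicle (33.7%). At day 5 Car2, Ckb and Plekhm1 were lower with the supernatant (39.4%) and Clcn7 was higher (11.4%); with vehicle Car2 and Plekhm1 were lower (36.7%) and Acp5, Clcn7, Ctsk and Slc9b2 higher (11.0%). Slc9b2 is again among these only as a description. In the fit without low-mRNA libraries, Adam8, Car2, Ckb and Clcn7 fell at day 3 with the supernatant, against 12.6% of all genes called lower, and Adam8 fell with vehicle, against 14.0%. At day 5 in that fit Ostm1 and Adam8 rose and Car2 fell with the supernatant, against 16.3% of all genes called higher and 22.8% lower, and Acp5, Ctsk, Clcn7, Ostm1 and Adam8 rose and Car2 fell with vehicle, against 18.5% and 18.9%. Adam8 in replicate 1 was at 9607.8 normalized counts at day 5 with the supernatant against 5901.0 at day 1, and at 7595.1 against 5397.0 with vehicle.

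A list of 41 other genes of osteoclast resorption and its control was set beside the 10, with 37 of them tested at day 1. Of these 14 rose and 5 fell with the supernatant at day 1, against the shares of 7.28% and 9.11% over all genes, with a median log2 difference of 0.13 against -0.05 over all genes. The 6 with the smallest p all rose. Ctsl and Ctsb, lysosomal cysteine proteases, rose by 0.68 ± 0.06 (SE, limma adjusted p = 1.2e-07) and 0.58 ± 0.07 (adjusted p = 7.4e-06). Mmp14, a membrane-bound matrix metalloprotease, had 64.4 and 56.5 normalized counts with the supernatant and 10.6 and 8.1 with vehicle. Its vehicle mean was under 10, so it passed the filter only through the supernatant group in which it is high. Mmp14 is counted among the 14 that rose, but its log2 difference of 2.58 ± 0.28 is a description here, with no test. Src, the kinase needed for the ruffled border, rose by 0.96 ± 0.13 (adjusted p = 2e-05). The proton pump subunits Atp6v0d2 and Tcirg1 rose by 0.60 ± 0.09 (adjusted p = 4.8e-05) and 0.37 ± 0.06 (adjusted p = 0.00025). The 5 that fell, named after their values were seen, were Ocstamp, needed for cell fusion, which fell by 0.68 on the log2 scale (limma adjusted p = 0.00062), Cst3, a cathepsin inhibitor, which fell by 0.33 (0.00063), Tnfrsf11a, which encodes RANK, the receptor for RANKL, which fell by 0.25 (0.0073), the proton pump accessory gene Atp6ap1, which fell by 0.22 (0.016), and Nfatc1, the master transcription factor of osteoclast formation, which fell by 0.22 (0.032). With the filter over all groups 8 rose and 1 fell of 40 tested, against 3.04% and 2.53% of all genes. With the term for low-mRNA libraries 1 rose and 0 fell, against 0.0408% and 0% of all genes.

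At days 3 and 5 none of the 40 tested genes of that list was called over the 12 libraries. The 4 with the smallest p at day 3 were Itgb3 (-1.65 ± 1.51), Mmp14 (1.24 ± 1.17), Ctsl (1.21 ± 1.26) and Ctsd (0.48 ± 0.50), as log2 difference ± SE between supernatant and vehicle. At day 5 they were Cst3 (-0.66 ± 0.46), Ocstamp (-2.10 ± 1.62), Siglec15 (-0.87 ± 0.74) and Ctsl (1.13 ± 1.26). Over the 12 libraries the median of the list was 0.14 at day 3 and 0.04 at day 5, against 0.23 and 0.07 over all genes. Between days none was called either: Mmp9, a matrix metalloprotease, had the smallest p at day 3 and day 5 with the supernatant (2.40 ± 0.97 and 3.40 ± 0.97) and at day 5 with vehicle (3.12 ± 0.97), and Siglec15 at day 3 with vehicle (2.37 ± 0.74). The others among the 4 with the smallest p were Siglec15 (1.63), Atp6v0a1 (-1.71) and Atp6v0d2 (2.02) at day 3 and Oscar (2.88), Ctsd (0.85) and Tnfrsf11a (-1.55) at day 5 with the supernatant, and Atp6v1d (1.38), Atp6v0d2 (2.73) and Ctsl (-2.70) at day 3 and Atp6v0d2 (2.27), Itgb3 (3.25) and Mmp14 (2.49) at day 5 with vehicle, as log2 differences from day 1. Siglec15, Oscar and Itgb3 were under 10 normalized counts in every day 1 library and passed the filter only through later groups. Mmp14, at 10.6 and 8.1 in the vehicle libraries of day 1, passed it only through other groups. The changes of these genes from day 1 are descriptions, with no test. Without the low-mRNA libraries, which leaves 1 library a treatment at days 3 and 5, 39 genes of the list were tested. Their median log2 difference between day 3 and day 1 was 0.14 with the supernatant and 0.35 with vehicle. Over all genes the median was 0.07 and 0.04. Between supernatant and vehicle the median of the 39 in that fit was -0.19 at day 3, with 10 higher and 28 lower. At day 5 it was -0.07, with 15 higher and 24 lower. Over all genes the medians between treatments were then -0.01 at day 3 and -0.10 at day 5. Of the 39, Siglec15 and Itgb3 passed the filter only through later groups.

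Nfatc1 was at 5353.6 and 1198.3 normalized counts at day 3 with the supernatant and 6223.6 and 930.4 with vehicle, and at 647.8 and 504.8 at day 5 with the supernatant and 799.6 and 830.8 with vehicle. At day 5 it was thus lower in the low-mRNA library than in replicate 1 with the supernatant and close to it with vehicle. Scaled to protein-coding reads it was higher there in both, at 532.3 and 744.5 with the supernatant and 657.3 and 1460 with vehicle, so that the direction with the supernatant turns with the scaling.

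Over the 12 libraries, which share the split in library make-up, Acp5 and Slc9b2 had a Pearson r of 0.96 in log2(normalized count + 1), Acp5 and Ctsk 0.89, and Ctsk and Slc9b2 0.88. Ostm1 correlated with Adam8 and Snx10 at 0.98 each. Among the 5 tested genes most like Acp5 by the same measure were Bdh2, 9130008F23Rik, Ablim1 and Slc9b2 (r between 0.96 and 0.97). Those most like Ctsk were Traf5, Mfsd12, Rpl37rt, Rpl37 and Tcirg1 (r between 0.95 and 0.97), of which Rpl37rt and Rpl37 are near-identical copies whose reads may be shared. These correlations describe the libraries and follow their 3 days and 2 kinds.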

How the data were processed

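RNA was prepared with Trizol and the Illumina TruSeq RNA kit, per the labels' protocols. The submitters' processing notes name TopHat2, SAMtools, DESeq2 and mm9, with no version. The authors deposited 1 table of log2 values, which are log2 of a normalized count plus 8, read from the values, whose minimum is 3. Undoing the log2 gave normalized counts that were whole multiples of 1 read within 0.02 for 100% of values above 0. The table had 24757 rows and 23764 Ensembl IDs. In it, 993 repeated rows with equal values were dropped, and 23315 IDs were named from GENCODE vM21. That annotation is on another build than mm9. Exon lengths and the classes of nuclear protein-coding and mitochondrial genes were also taken from it, matched by Ensembl ID. Promoters are from RefSeq, GRCm38.p6.

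Tests were limma (limma 3.58.1, R 4.3.3, trended, moderated) on log2(normalized count + 1), Benjamini-Hochberg adjusted over all genes tested, with a threshold of 0.05. Day 1 was fitted on its 4 libraries and every other comparison on the 12, with no block. Genes were kept with a mean of at least 10 in any group of the fit. That reading of the filter was used first and was kept after a filter over all 6 groups had been seen to give 820 calls at day 1 in place of 2237; both are reported. Alternatives were other filters, pseudocounts, scalings, limma-voom on recovered reads, a replicate block, a term for the low-mRNA libraries (under 60% of reads on nuclear protein-coding genes) by day, leaving them out, and leaving out each library. Scripts were tested on simulated data. Tables were handled in Python 3.11.15 with numpy 2.4.6 and pandas 2.3.3.

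The members, the gene lists, the designs and the rule for named genes were chosen with earlier results of these data known. Named were all 10 members, up to 6 called genes of the other resorption list per comparison (or the 4 of smallest p), and the 5 genes most like Acp5 and Ctsk, of which 1 is not reported here. SE and p-values reflect 2 libraries a group.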

Additional observations from a re-analysis of the deposited data

How the results depend on the processing

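At day 1, 2237 genes were called, against 1382 to 1643 without 1 library, 435 with no filter, 820 with the filter over all 6 groups, 844 with that filter and the low-mRNA libraries left out, 6 with the term for low-mRNA libraries, 0 over all 12 libraries and 3701 with a replicate block. Other pseudocounts, quantile normalization, scaling to protein-coding reads, limma-voom and leaving out the low-mRNA libraries gave between 1830 and 2262. Of the 10 genes, 4 were called, against 0 over all 12 libraries and 0 with the low-mRNA term, between 3 and 5 without 1 library and 5 with the block, which added Adam8 (limma adjusted p = 0.00019). The filter over all groups, alone or with the low-mRNA libraries left out, and those fits without a day 1 library were added after the data were seen. The causes of these changes were not tested. With the block, 0 genes were called in every other comparison. Same-numbered libraries deviated together at days 3 and 5 (correlation 0.90 at each) but not at day 1 (0.07), with 2 pairs a day, so the numbers give no pairing by the design.

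Where the designed fit called 0 genes, leaving out the low-mRNA libraries, then adding the filter over all groups, and the low-mRNA term gave calls as follows. Supernatant against vehicle gave 391, 17 and 10 at day 3 and 2203, 855 and 60 at day 5, with 2, 1 and 0 of the 10 genes at day 5. Day 3 against day 1 gave 4214, 2940 and 280 with the supernatant (7, 5 and 3 of the 10) and 4082, 2898 and 423 with vehicle (6, 4 and 3). Each of these counts at day 3 holds Slc9b2, which passed the filter only through the later groups. Day 5 against day 1 gave 5619, 4560 and 610 with the supernatant (3, 3 and 1) and 5371, 4330 and 431 with vehicle (6, 5 and 1). The difference of the effect between days gave 999 (3 of the 10) and 15. Without a further day 1 library the fit without low-mRNA libraries gave 112 to 297 calls at day 3, 1039 to 1877 at day 5 and 47 to 659 for the difference between days. The cause was not tested.

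Some uncalled log2 differences changed sign. At day 3 without the low-mRNA libraries they came to -0.16 for Ctsk, -0.041 for Snx10, -0.23 for Plekhm1 and -0.23 for Ckb, and with quantile normalization to -0.017 for Snx10 and -0.059 for Plekhm1. At day 5 they came to -0.091 for Ctsk, -0.072 for Snx10 and 0.26 for Ckb without the low-mRNA libraries, to -0.031 for Ctsk and -0.057 for Plekhm1 with quantile normalization, and to -0.12 and -0.11 with scaling to protein-coding reads. Day 5 against day 1 with the supernatant came to -0.23 for Acp5 and -0.10 for Ctsk without the low-mRNA libraries and to -0.21 and -0.048 with their term. Leaving out 1 library gave ranges at day 3 of -0.46 to 0.20 for Acp5, -0.36 to 1.48 for Ctsk, -0.46 to 1.41 for Car2, -0.66 to 1.26 for Ostm1, -0.70 to 1.01 for Snx10, -0.85 to 1.16 for Plekhm1, -0.50 to 1.21 for Ckb and -0.63 to 1.67 for Adam8. At day 5 they were -3.27 to 1.86 for Acp5, -2.33 to 2.34 for Ctsk, -2.97 to 2.18 for Slc9b2, -0.42 to 1.17 for Ostm1, -0.51 to 1.07 for Snx10, -0.23 to 0.27 for Plekhm1, -0.22 to 0.20 for Ckb and -0.97 to 1.45 for Adam8. Day 5 against day 1 with the supernatant ranged from -0.23 to 4.90 for Acp5 and from -0.10 to 4.57 for Ctsk. In all, 434 of the values for single genes without 1 library, and 371 of those under the other settings, kept their direction and side of the threshold, while 31 and 17 changed sign. Outside day 1, each of the 12 libraries was left out in turn, also those in neither group compared. Leaving out such a library cannot change the log2 difference, so the 434 is no measure of stability. Of the values that did not change sign, 1 gained and 2 lost a call without 1 library. Under the other settings 25 gained and 10 lost a call. At day 1 Acp5 rested on 16 to 30 reads a library and Slc9b2 on 1 to 10.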
